A study of Mus musculus with 12 samples.

Results

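The 9 genes *Mbp*, *Mag*, *Mog*, *Mobp*, *Cnp*, *Mal*, *Cldn11*, *Opalin* and *Ugt8a* were taken by symbol out of the 52459 genes counted in every library, as genes of myelin and of the mature oligodendrocyte. The rule names them by symbol alone, but they were chosen with earlier results of these data known. Cerebellum (Cb) and forebrain/midbrain (F/M) were taken from 4-month-old male *Tpp1*-/- mice (T), a model of classic late-infantile neuronal ceroid lipofuscinosis made by gene targeting, and from male wild-type siblings of that age (N). RNA-seq gave 3 libraries for each of the 4 groups (Cb-N, Cb-T, F/M-N, F/M-T), and all 9 genes passed the filter on low counts in every comparison.

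Oligodendrocytes wrap axons of the central nervous system in myelin, a compacted stack of membrane rich in a few proteins and in galactolipids. Precursors that carry *Pdgfra* pass through a newly formed stage, then switch on the myelin genes together under transcription factors such as *Sox10*, *Olig2* and *Myrf*. Myelin itself lasts long, and the RNA of these genes is no measure of how much myelin is present.

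The samples were checked first. *Tpp1*, which encodes a lysosomal peptidase, stood at 114 to 116 CPM (counts scaled to the size of the library) in cerebellar controls against 28.7 to 31.8 CPM in mutants, and at 85.3 to 91.4 against 21.5 to 23.7 CPM in forebrain/midbrain, so its level followed the labels in all 12 libraries. Total counts ran from 21428379 to 24458189 per library, and a count of 0 there allows a level of up to 0.123 to 0.140 CPM (3 counts, counting error only). The 12 cerebellar neuron markers summed to at least 8091 CPM in each cerebellar library and to at most 302.5 CPM in each F/M library. The 3 libraries of a group differed from each other beyond counting noise, and since nothing in the labels names the animal behind each library, p-values measure the spread between these libraries.

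Start regions of 6 members are shown because oligodendrocyte genes are switched on together during differentiation. In the stretches upstream of the RefSeq transcription start, capitals mark the letters CTGGCAC or CTGGTAC, bound by MYRF, and ACAAAG, bound by SOX factors, on either strand. The E-box CATCTG is also in capitals for *Opalin*, and GGGCGG, an SP1 letter run, for *Ugt8a*. Coordinates are GRCm38.p6 (mm10), all in sequence upstream of the start, and every line reads 5′ to 3′ on the gene's own strand.
Mag (chr7:30914923-30915022, minus strand): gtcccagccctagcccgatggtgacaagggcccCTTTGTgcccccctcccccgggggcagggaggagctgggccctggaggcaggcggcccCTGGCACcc
Cnp (chr11:100574759-100574898, plus strand): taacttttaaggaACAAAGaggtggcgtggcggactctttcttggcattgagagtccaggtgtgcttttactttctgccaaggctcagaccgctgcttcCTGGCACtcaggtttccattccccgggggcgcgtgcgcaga
Mog (chr17:37023399-37023518, minus strand): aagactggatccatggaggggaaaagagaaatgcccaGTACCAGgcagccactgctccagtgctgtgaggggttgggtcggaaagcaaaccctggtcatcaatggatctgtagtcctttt
Mobp (chr9:120149492-120149632, plus strand): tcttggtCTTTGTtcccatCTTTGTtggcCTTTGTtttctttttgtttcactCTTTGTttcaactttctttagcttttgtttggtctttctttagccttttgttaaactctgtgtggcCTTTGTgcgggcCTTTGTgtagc
Opalin (chr19:41077114-41077263, minus strand): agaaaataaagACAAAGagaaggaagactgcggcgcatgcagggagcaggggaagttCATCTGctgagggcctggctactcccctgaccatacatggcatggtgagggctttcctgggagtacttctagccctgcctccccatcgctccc
Ugt8a (chr3:125938653-125938782, minus strand): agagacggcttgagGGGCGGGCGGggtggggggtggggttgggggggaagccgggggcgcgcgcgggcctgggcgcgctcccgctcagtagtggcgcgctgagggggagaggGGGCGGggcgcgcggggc

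RefSeq windows of 250 bases before to 50 after the start were at hand for 8 of the 9 members. CTGGCAC lay in windows of *Mag*, *Cnp* and *Opalin*, and in 5.01% of all 32851 windows, while CTGGTAC lay in the *Mog* window and in 2.24% of all windows. In the printed stretches the leftmost base of the match was 9 bases before the start in *Mag*, 81 in *Cnp* and 83 in *Mog*, whereas the *Opalin* match lay after its start and is not printed. RefSeq gives *Mag* 3 starts, of which the stretch uses the farthest upstream. Counted from window 2 the same match lies at -68, and window 1 holds neither it nor the SOX letters. ACAAAG lay in windows of *Mag*, *Mobp*, *Cnp* and *Opalin* (18.7% of all windows), and *Mobp* held 6 copies, all read on the opposite strand. The windows of *Mal*, *Cldn11* and *Ugt8a* held neither MYRF form nor ACAAAG. The SP1 run GGGCGG lay in windows of 3 of the 8, *Cnp*, *Cldn11* and *Ugt8a*, and in 35.7% of all windows. *Ugt8a* held 3 copies, 2 of them overlapping. The *Cnp* matches, at -26 and -8, lie outside its printed stretch. The shorter SOX letters ACAAT (31%) and TATAAA (13.6%) lay in 0 of the 8 members' windows. CATCTG lay in the *Opalin* window alone of the 8 (17.2% of all windows). The general E-box CANNTG lay in windows of 4 of the 8, *Mag*, *Cnp*, *Opalin* and *Ugt8a* (72.3% of all windows). These are matches of letters in a window, and binding was not measured.

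Each gene lies on a chromosome of its own except *Cldn11* and *Ugt8a*, which share chromosome 3. In the GRCm38 gene annotation *Cnp* overlaps the protein-coding gene *Dnajc7* on the opposite strand, *Mobp* overlaps the processed transcript *Gm38642* on its own strand, *Mog* overlaps the small RNA *Gm22388*, and *Mbp* overlaps the pseudogene *Rpl21-ps8*. The libraries were stranded, but whether counting used the strand is not stated, so reads of *Cnp* and *Dnajc7* may not be fully separated.

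The first comparison set mutant against control cerebellum. Of the 9 members 8 rose in Cb-T and 1, *Ugt8a*, did not pass the test. The rises were small for most of them, from 1.12-fold for *Mal* to 1.41-fold for *Mbp*, and only *Opalin* reached 1.5-fold (1.64-fold). A gene is called here when edgeR's quasi-likelihood test gives a Benjamini-Hochberg adjusted p (FDR) below 0.1, and a differentially expressed gene (DEG) when it also changes at least 1.5-fold. Of 16382 genes tested, 29.8% were called higher and 27.9% lower, and 8.54% were DEG with a rise, so a call alone was common in this comparison. The median log2 fold change of the 9 members was 0.33, against 0.01 over all genes tested. All 3 mutant cerebellar libraries also held 14.5 to 15.2 CPM of summed hindbrain *Hox* genes, against 0.378 to 0.606 CPM in the controls, and the part of this in the members' rise was not tested.

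*Mbp* encodes myelin basic protein, which holds the cytoplasmic faces of the membrane together. The 3 controls were at 2000.5, 2003.6 and 2040.4 CPM and the 3 mutants at 2860.5, 2825.5 and 2837.1 CPM. The groups were far apart and each was tight, and the log2 fold change was 0.50 ± 0.019 (SE, adjusted p = 7.1e-25). *Mobp*, another basic protein of compact myelin, went from 615.8, 599.7 and 625.7 CPM to 749.4, 752.8 and 753.2 CPM, a log2 fold change of 0.29 ± 0.022 (adjusted p = 5e-15).

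*Mag* and *Mog* encode proteins of the sheath's surface, at the side facing the axon and at the outermost face. *Mag* was at 165, 163 and 165 CPM in the controls and at 216, 226 and 228 CPM in the mutants (log2 fold change 0.44 ± 0.028, adjusted p = 1.1e-17). *Mog* was at 44.9, 47.3 and 45.7 CPM in the controls and at 57.2, 57.7 and 57.5 CPM in the mutants (0.32 ± 0.041, adjusted p = 1e-08). No Cb-T library of either gene came down to the Cb-N range.

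*Cnp* encodes a phosphodiesterase that keeps cytoplasmic channels open in myelin, and *Cldn11* the claudin of its tight junctions. *Cnp* went from 355, 355 and 366 CPM to 444, 462 and 448 CPM (log2 fold change 0.33 ± 0.024, adjusted p = 1.2e-15). *Cldn11* went from 79.8, 78.0 and 79.5 CPM to 102, 98.6 and 97.8 CPM (0.33 ± 0.034, adjusted p = 2.8e-11). *Mal*, a proteolipid of membrane sorting, rose least among the 8, from 139, 143 and 141 CPM to 160, 159 and 155 CPM (0.17 ± 0.029, adjusted p = 4e-06).

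*Opalin*, a small glycoprotein of the oligodendrocyte membrane, had the lowest counts and the largest change. Its controls were at 8.71, 7.56 and 9.02 CPM and its mutants at 13.7, 15.6 and 12.1 CPM. Its log2 fold change was 0.71 ± 0.093 (adjusted p = 1.5e-08), and its libraries spread more than those of the other members. *Ugt8a*, the enzyme that makes galactosylceramide, stood apart in the other direction. Controls at 73.6, 72.0 and 72.0 CPM and mutants at 75.4, 72.6 and 72.8 CPM overlapped, and the difference of 0.02 ± 0.036 did not pass the test (adjusted p = 0.67). For 8 of the 9 members every Cb-T library was above every Cb-N library, which held for 29.3% of all genes tested.

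**Figure D1:**
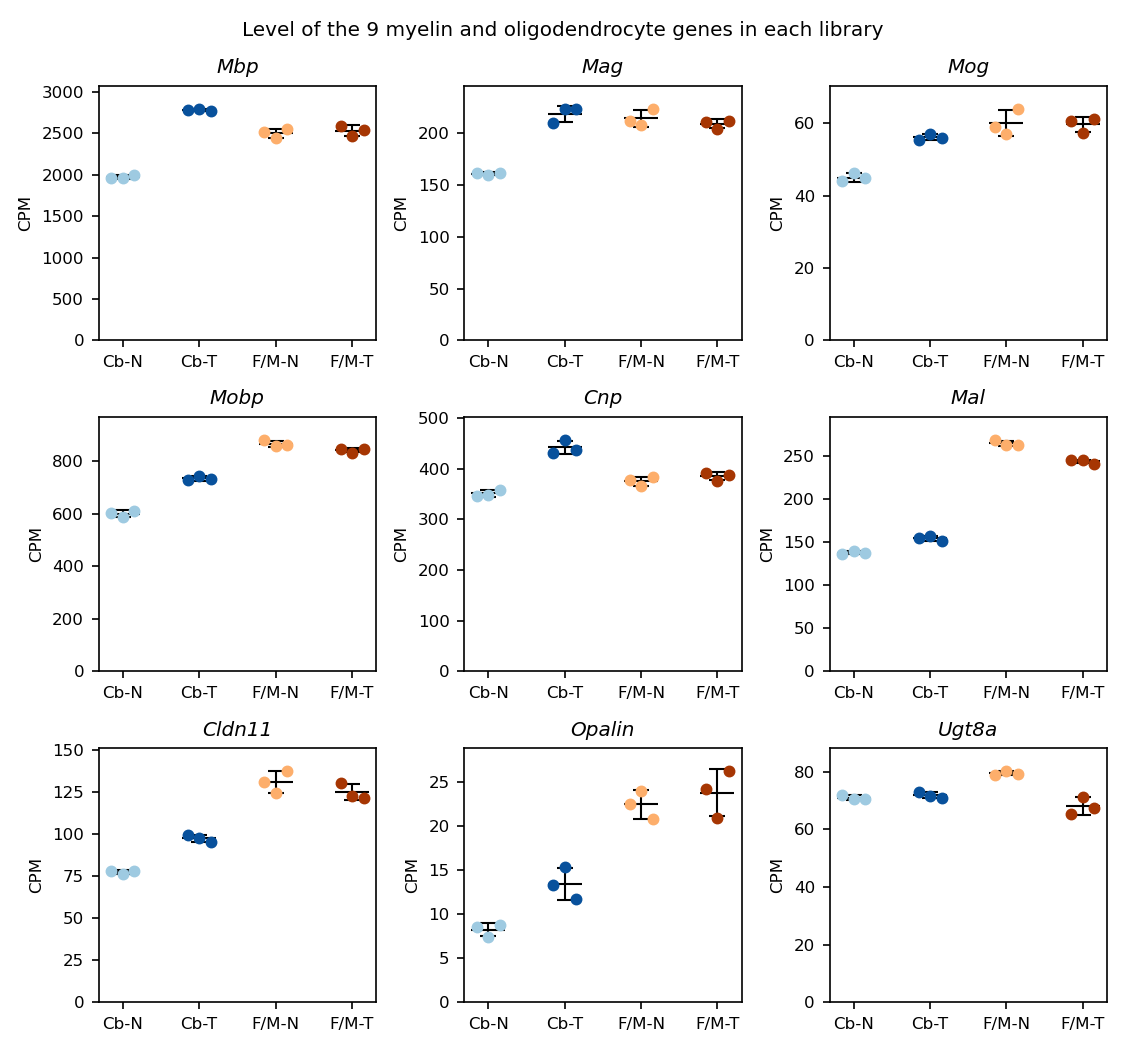
Level of each member in CPM (one TMM scale over the 12 libraries) by group, with 1 point per library and the mean ± SD of 3 libraries in black, on axes from 0. Cb-T points stand above Cb-N points for every gene but *Ugt8a*, while the F/M genotypes stand apart only for *Mobp*, *Mal* and *Ugt8a* on this scale.

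In the forebrain/midbrain the same genes moved little. *Cnp* passed the test as higher in F/M-T, *Mal* and *Ugt8a* as lower, and the other 6 did not pass. No member was a DEG, where 2.63% of genes were with a rise and 0.858% with a fall. Over the 16665 genes tested, 12.8% were called higher and 14.4% lower. The members' median log2 fold change was 0.003, against 0.008 over all genes.

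*Ugt8a* changed most. Its controls were at 76.2, 77.6 and 76.7 CPM and its mutants at 64.8, 70.6 and 67.5 CPM, a log2 fold change of -0.18 ± 0.039 (adjusted p = 0.0022). *Mal* went from 259, 254 and 255 CPM to 244, 242 and 241 CPM (-0.08 ± 0.028, adjusted p = 0.05). *Cnp* went from 364, 354 and 370.5 CPM to 389, 372 and 387 CPM (0.08 ± 0.029, adjusted p = 0.069). These 3 genes were the ones whose groups did not overlap, which happened upward for 17.7% and downward for 17.8% of all genes tested. The *Cnp* and *Mal* calls were not firm: *Cnp* lost its call without F/M-N replicate 1 (adjusted p = 0.16), F/M-N replicate 2 (0.22), F/M-T replicate 1 (0.24) or F/M-T replicate 3 (0.22), and *Mal* lost it without F/M-N replicate 1 (0.19), F/M-T replicate 1 (0.11) or F/M-T replicate 3 (0.17). *Ugt8a* kept its call whichever library was left out.

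*Mbp* was at 2428, 2362 and 2465 CPM in the controls and at 2574, 2434 and 2538 CPM in the mutants (log2 fold change 0.06 ± 0.025, adjusted p = 0.11). *Opalin* was at 21.8, 23.3 and 20.2 CPM against 24.1, 20.8 and 26.2 CPM (0.12 ± 0.076, adjusted p = 0.27). Both overlapped between genotypes. They passed the test when F/M-T replicate 2 was left out (adjusted p = 0.026 and 0.039), and *Mbp* also without F/M-N replicate 3 (0.047).

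*Mag* was at 204, 201 and 216 CPM against 209, 202 and 211 CPM, and *Mog* at 57.0, 55.2 and 61.9 CPM against 60.2, 56.6 and 61.1 CPM. *Mobp* was at 850.2, 830.03 and 836 CPM against 839.96, 824 and 847 CPM, and *Cldn11* at 126, 119.9 and 133 CPM against 129, 121 and 121 CPM. The log2 fold changes of these 4 genes lay between -0.03 and 0.03, with SEs of up to 0.047 and adjusted p-values from 0.67 to 0.96.

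**Figure D2:**
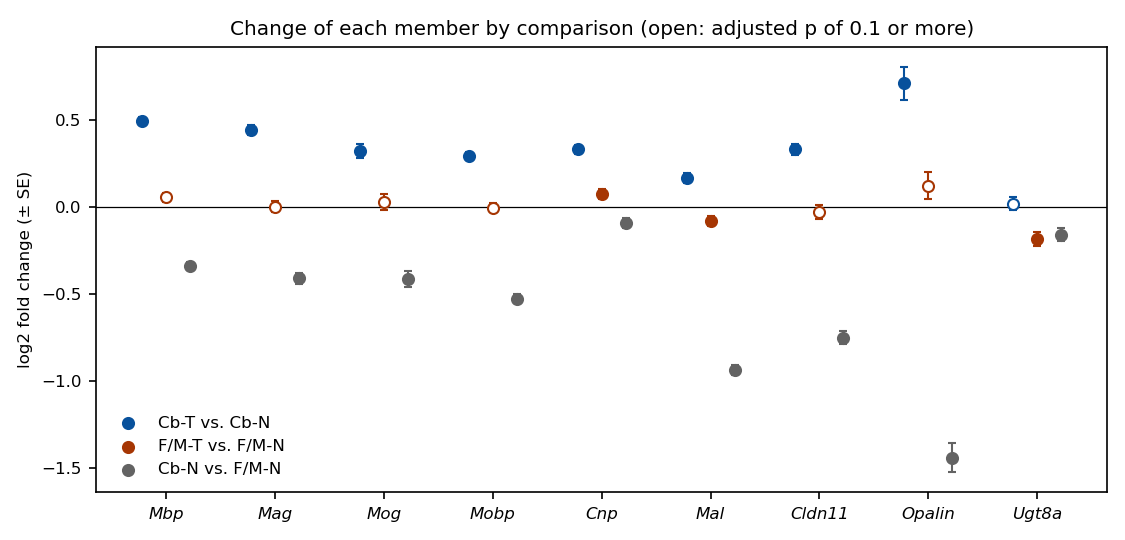
Log2 fold change of each member with its SE in Cb-T vs. Cb-N (blue), F/M-T vs. F/M-N (brown) and Cb-N vs. F/M-N (gray). Filled points have an adjusted p below 0.1. The blue points lie from 0.02 to 0.71, the brown points from -0.18 to 0.12 and the gray points from -1.44 to -0.09.

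Whether the genotype difference itself differed between the areas was tested as an interaction over the 12 libraries. By the study's methods both areas came from 3 mice of each genotype, so libraries of the 2 areas share animals. The labels do not match them, and this test and that of the control areas treat the areas as independent. The log2 fold change in Cb minus that in F/M was above 0 and passed the test for all 9 members, against 17.4% of the 17482 genes tested that were called in this direction. This test rests on the Cb-T libraries, which held the hindbrain *Hox* genes given above, and a difference in the tissue taken and one between genotypes cannot be told apart there. The difference in log2 fold change was 0.46 for *Mbp* and *Mag*, 0.61 for *Opalin* and 0.38 for *Cldn11*. It was 0.32 for *Mobp*, 0.31 for *Mog*, 0.27 for *Cnp* and *Mal*, and 0.22 for *Ugt8a*, whose change was the smaller one in Cb (0.02) and a fall in F/M (-0.18). Adjusted p-values ran from 2.9e-13 (*Mbp*) to 0.0019 (*Ugt8a*), and only *Opalin* differed by 1.5-fold or more (6.41% of genes in this direction). *Opalin* fell short of 1.5-fold with relative log expression (RLE) scaling, in DESeq2, at a mean count of 50 or more, and without F/M-N replicate 2, F/M-T replicate 2, Cb-N replicate 2, Cb-T replicate 1 or Cb-T replicate 2, with a difference of 0.51 to 0.69 over the libraries left out, and passed the test each time. In whole tissue, more RNA per oligodendrocyte and more oligodendrocytes in the piece cannot be told apart.

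The control areas also differed. All 9 members were lower in Cb-N than in F/M-N, where 40.1% of the 16725 genes tested were lower, and 3 of them by 1.5-fold or more (22.8% of genes). No Cb-N library of any member reached the F/M-N range, as for 39% of all genes tested in this direction. *Opalin* differed most, at 8.12 ± 0.745 CPM in cerebellum against 22.1 ± 1.63 CPM in forebrain/midbrain (SD, n = 3), a log2 fold change of -1.44. *Mal* was at 136 ± 1.94 against 260.03 ± 2.83 CPM (-0.93) and *Cldn11* at 76.3 ± 0.963 against 128 ± 6.23 CPM (-0.75). *Mobp* (-0.53), *Mog* (-0.41), *Mag* (-0.41) and *Mbp* (-0.34) were between these and the enzymes *Ugt8a* (-0.16) and *Cnp* (-0.09). Adjusted p-values were at most 0.0059. This comparison shares its libraries with the other comparisons, so their values are side by side and not independent of each other.

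Put on one scale over the 12 libraries, the 4 groups fell into several orders. This scale sets F/M-T lower against F/M-N than the fit of F/M alone, and *Mobp*, whose F/M genotypes stand apart on it, overlapped on the scale of F/M alone. For 8 members every Cb-N library was below every other library, as for 17.7% of the 17482 genes tested. *Mbp* and *Cnp* were highest in Cb-T, above both F/M groups, which overlapped with each other. *Mag* was also highest in Cb-T by mean, but Cb-T overlapped F/M-N and F/M-N overlapped F/M-T. For *Mobp* and *Mal* the order was F/M-N, F/M-T, Cb-T and Cb-N with no overlap between neighbours, and for *Mog* and *Cldn11* it was the same with both F/M groups overlapping. *Opalin* ran F/M-T, F/M-N, Cb-T, Cb-N, again with overlap in F/M. *Ugt8a* was the exception, with F/M-N highest and Cb-T, Cb-N and F/M-T below it in overlapping ranges.

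Counted without any scaling, the 9 genes took 0.344% of all counts in Cb-N, 0.473% in Cb-T, 0.433% in F/M-N and 0.449% in F/M-T. The cerebellar ranges, 0.341% to 0.350% and 0.473% to 0.474%, were far apart. Per kb of exon, so that genes can be compared, *Mbp* was the highest member in every group and *Opalin* the lowest. The share that each gene takes of the members' summed level per kb does not depend on library scaling.

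*Mbp* took 39.3% ± 0.081 of this sum in Cb-N and 42.5% ± 0.308 in Cb-T, and 36.8% ± 0.048 in F/M-N and 37.8% ± 0.281 in F/M-T (SD, n = 3), without overlap in either area. The *Ugt8a* share went the other way, from 2.64% ± 0.051 to 2.06% ± 0.043 in Cb and from 2.18% ± 0.062 to 1.90% ± 0.122 in F/M. *Mal* went from 8.39% ± 0.155 to 7.22% ± 0.096 in Cb and from 11.9% ± 0.242 to 11.1% ± 0.239 in F/M. Thus *Mbp* gained and *Ugt8a* and *Mal* lost share in T libraries of both areas, with no overlap between genotypes. With 3 libraries against 3 an exact permutation test of 1 gene's share cannot go below p = 0.1, so these shares are given as values.

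*Cnp* split by area: its share went from 16.3% to 15.7% in Cb and from 12.8% to 13.4% in F/M, again with no overlap. *Mobp* (14.8% to 13.9%) and *Mog* (4.46% to 4.27%) lost share in Cb and *Opalin* gained (0.472% to 0.593%), while their F/M shares overlapped. *Mag* and *Cldn11* overlapped in both areas. As shares of 1 sum they are not independent, since a gain by *Mbp*, the highest member, lowers the others.

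**Figure D3:**
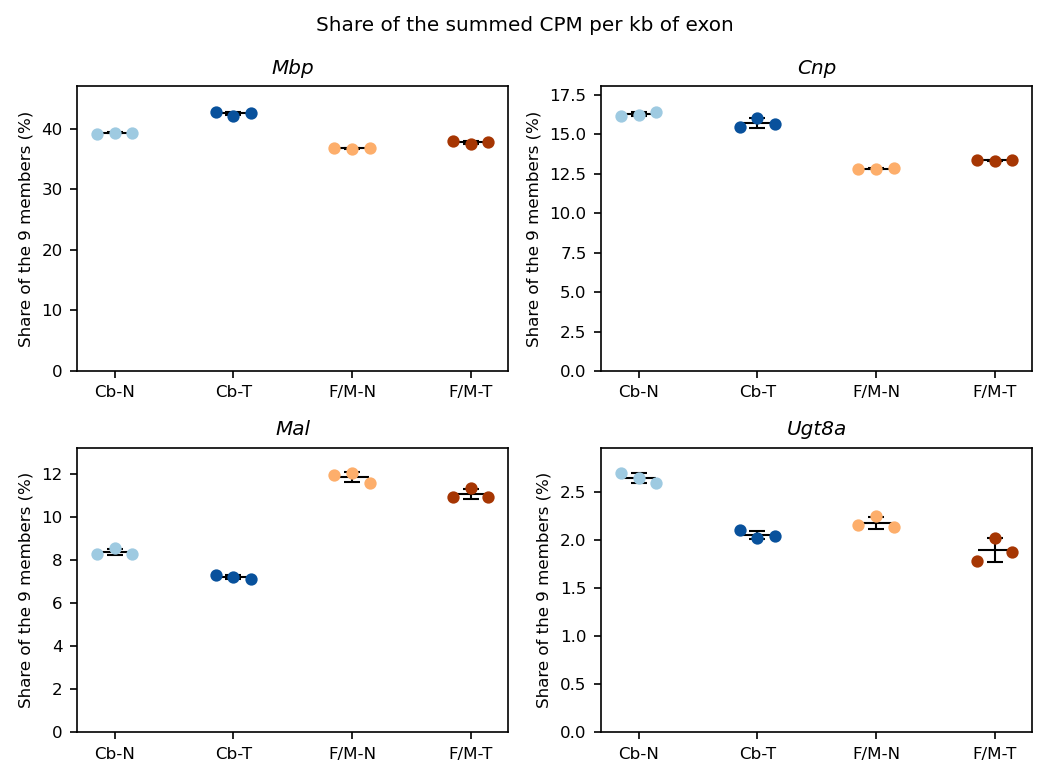
Share of 4 members in the summed CPM per kb of exon of all 9, in percent, with 1 point per library and the mean ± SD of 3 libraries. *Mbp* is higher, and *Mal* and *Ugt8a* lower, in the T libraries of both areas, and *Cnp* is lower in Cb-T and higher in F/M-T.

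Other genes of the lineage were read from lists. Over all genes tested in Cb, 29.8% were called higher and 27.9% lower in mutants. Of 20 further genes of mature oligodendrocytes, 17 rose and 1 (*Adamts4*, at -0.10) fell in Cb-T, with a median log2 fold change of 0.25. With a library left out 12 to 16 rose, fewest without Cb-N replicate 1. *Pllp*, a relative of *Mal* in myelin, rose most (30.4 ± 1.61 to 52.7 ± 0.948 CPM, SD, n = 3, log2 fold change 0.79). *Klk6*, a protease of oligodendrocytes, rose by 0.69, *Gal3st1*, which makes sulfatide, by 0.48, and *Gjb1*, a gap junction protein, by 0.48. The *Adamts4* call was lost at an adjusted p limit of 0.05, in DESeq2, and without Cb-N replicate 1, Cb-T replicate 2 or Cb-T replicate 3. In F/M-T 6 of the 20 rose and 3 fell, with a median of 0.02, where 12.8% of all genes were called higher and 14.4% lower. The count that rose was 3 without F/M-N replicate 1, F/M-T replicate 1 or F/M-T replicate 2.

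Lipid enzymes of myelin were mixed. The 12 include the member *Ugt8a*, and *Aspa*, *Fa2h* and *Gal3st1* also count among the 20 mature genes. In Cb-T 8 of the 12 rose (29.8% of all genes) and 1 fell (27.9%), and the median was 0.20. The gene that fell was *Sgpp2*, a sphingosine phosphate phosphatase, by 0.26. *Gal3st1* (0.48), *Gltp*, a glycolipid transfer protein (0.40), and *Aspa*, which frees acetate for lipid synthesis (0.36), rose most. *Fa2h*, which adds the hydroxyl group to the fatty acids of myelin galactolipids, was at 37.5 ± 1.23 CPM in controls and 38.1 ± 3.28 CPM in mutants of this area (adjusted p = 0.77). In F/M-T *Fa2h* fell from 42.2 ± 0.339 to 34.8 ± 0.461 CPM (-0.28, adjusted p = 0.00015), as did *Sgpp2* (-0.33) and *Ugt8a*, whereas *Asah1*, the lysosomal ceramidase (0.20), and *Gltp* (0.15) rose. The count of enzymes that rose in F/M-T was 1 without F/M-N replicate 1 or 2, or without F/M-T replicate 2 or 3.

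Earlier stages of the lineage moved as well in Cb-T. Of 10 genes of precursors and newly formed cells 9 rose (29.8% of all genes), with a median of 0.43. *C1ql1*, secreted by precursors, went from 2.51 ± 0.501 to 5.66 ± 0.614 CPM (log2 fold change 1.17), *Gpr17*, a receptor of committed precursors, rose by 0.65, *Bcas1*, which marks newly formed cells, by 0.59, and *Pdgfra*, the growth factor receptor of precursors, by 0.50. *Tnr*, a matrix protein also made by interneurons, fell by 0.29. In F/M-T 2 of the 10 rose, *Neu4* (0.29) and *Bcas1* (0.13), where 12.8% of all genes did. None fell, except 1 without F/M-N replicate 3.

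Of 10 transcription factors of the lineage, 7 rose (29.8% of all genes) and 1 fell (27.9%) in Cb-T, with a median of 0.27. *Sox10* rose by 0.27, *Olig2* by 0.26, *Myrf*, the switch for myelin genes, by 0.28 and *Olig1* by 0.46. *Nkx6-2* rose by 0.61. *Tcf7l2*, a Wnt pathway factor found in newly formed oligodendrocytes and in neurons of thalamus and midbrain, went from 6.56 ± 0.207 to 37.7 ± 2.66 CPM (2.52). That was far more than any other gene of the mature, lipid, precursor and transcription factor lists. *St18*, which is far higher in Cb-N than in F/M-N (3.53), fell from 193 ± 6.03 to 138 ± 1.53 CPM (-0.49). In F/M-T *Nkx6-2* (0.32) and *Olig1* (0.18) rose and *Tcf7l2* fell (-0.30), where 12.8% of all genes were higher and 14.4% lower. Without F/M-N replicate 1 only 1 rose, and without F/M-N replicate 3 the count that fell was 3.

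In the control areas 9 of the 10 precursor genes and 8 of the 10 transcription factors were lower in Cb-N, with medians of -0.75 and -0.89, and of the 20 mature genes 10 were lower and 5 higher, with a median of -0.12 (40.1% of all genes were lower). *Gpr17* (-1.74), *C1ql1* (-1.52) and *Tcf7l2* (-2.80) differed most among those that were lower. *Klk6* was higher in Cb-N (1.40). All-gene medians were within 0.03 of 0 in each comparison.

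**Figure D4:**
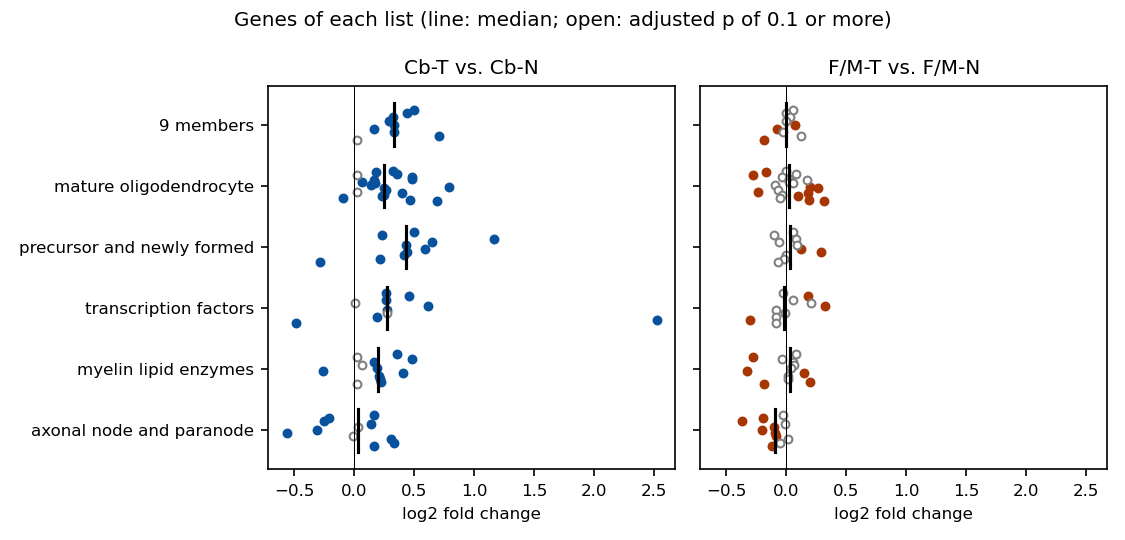
Log2 fold change of each gene in the members and 5 lists in Cb-T vs. Cb-N (left) and F/M-T vs. F/M-N (right), on the same axis, with each list's median as a black line and filled points for an adjusted p below 0.1. Medians of the oligodendrocyte lists lie between 0.20 and 0.43 on the left and close to 0 on the right, and *Tcf7l2* is the point at 2.52.

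Markers of neighbouring hindbrain moved with the Cb-T libraries. Of 20 genes that mark hindbrain and spinal cord, 18 were higher in every Cb-T than in every Cb-N library (29.3% of all genes tested). Of the 15 tested 14 were DEG with a rise (8.54% of all genes). The *Hox* genes among these 15 passed the filter on low counts only through Cb-T, so that count was favoured by the filter and supports nothing. The list summed to 70.7 to 73.7 CPM in mutant and 49.5 to 52.5 CPM in control cerebellum, most of it *Slc6a5*, the glycine transporter, which had a log2 fold change of -0.02 (adjusted p = 0.70). Its 14 *Hox* genes, position genes of hindbrain and cord, summed to 14.5 to 15.2 CPM in the mutants and 0.378 to 0.606 CPM in the controls. *Hoxb5*, *Hoxb6*, *Hoxc4*, *Hoxc5*, *Hoxd3* and *Hoxd4* had no count in Cb-N, and *Hoxb5* stood at 2.61 ± 0.610 CPM in Cb-T. *Chat*, a marker of cholinergic neurons, went from 0.108 to 1.59 CPM. *Isl1*, of the same list, went the other way without overlap, from 0.0935 to 0.0144 CPM, with at most 4 counts in a cerebellar library.

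All 3 Cb-T libraries showed these markers, so no fit of the cerebellum without them could be made, and their part in the rise of the oligodendrocyte lists was not tested either. Cerebellar neuron markers summed to 9434 to 9504 CPM in control and 8091 to 8155 CPM in mutant libraries, with 11 of 12 lower. Astrocyte markers went from 6663 to 6739 CPM up to 8603 to 8618 CPM, and microglial markers from 144 to 155 CPM up to 458 to 473 CPM. Endothelial markers went from 327 to 345 CPM up to 381 to 386 CPM, and general neuronal markers from 6975 to 7053 CPM down to 6327 to 6456 CPM. In F/M the hindbrain list summed to 21.8 to 24.5 CPM in N and 27.1 to 28.8 CPM in T with 12 of 20 genes at 0 in each genotype, and among forebrain markers *Omp* fell from 3.07 ± 0.329 to 0.325 ± 0.124 CPM and *S100a5* from 1.97 ± 0.230 to 0.057 ± 0.065 CPM, both known from the olfactory system. Astrocyte markers summed to 5595 to 5871 CPM in F/M-N and 6560 to 6918 CPM in F/M-T, microglial markers to 396 to 410 and 573 to 577 CPM, endothelial markers to 291 to 297 and 313 to 325 CPM, and neuronal markers to 8785 to 8806 and 8373 to 8448 CPM. None of these 4 sums overlapped between genotypes. The part of these markers in the F/M values, the falls of *Ugt8a* and *Fa2h* among them, was not tested.

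**Figure D5:**
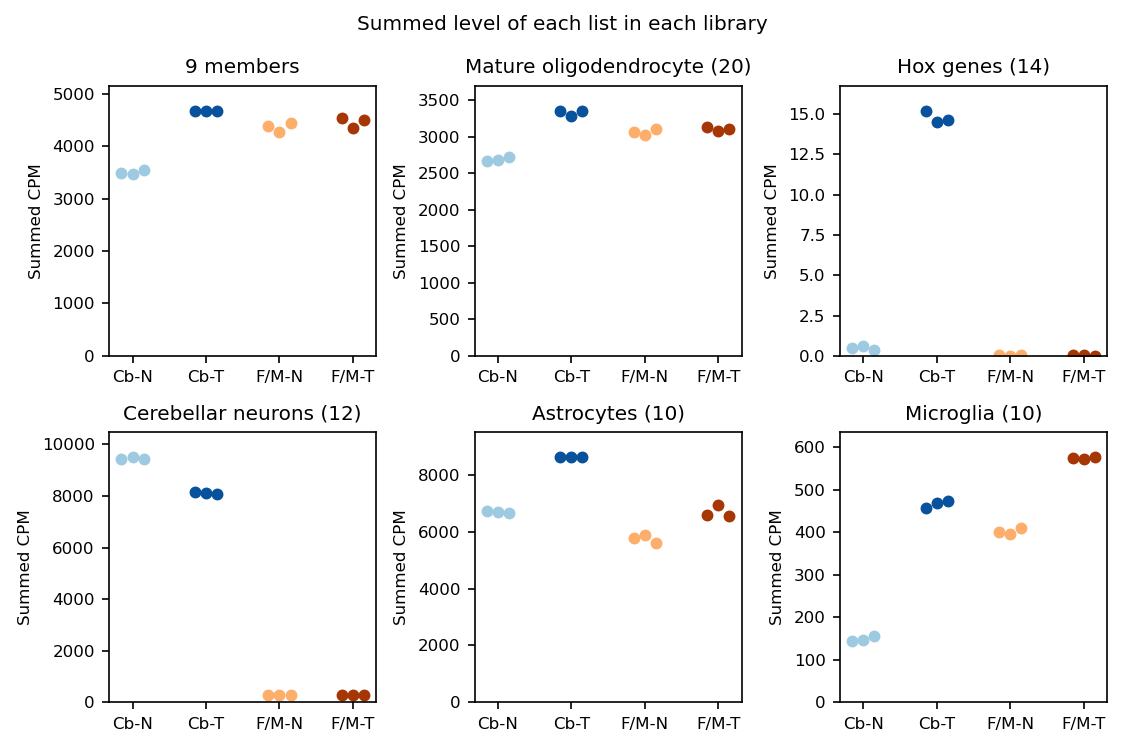
Summed CPM of the members and of 5 marker lists in each library, on the scale of its own area, with 1 point per library and axes from 0. In Cb-T the members, the mature oligodendrocyte list, the *Hox* genes, astrocyte and microglia lists stand above Cb-N and the cerebellar neuron list below it.

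Over the 12 libraries the members themselves did not form 1 pattern. The correlation of a member with the mean of the others was 0.96 for *Mog*, 0.95 for *Mobp*, 0.93 for *Mag* and 0.91 for *Cldn11*, but 0.38 for *Cnp* and 0.21 for *Ugt8a*. *Mobp* and *Cldn11* were the closest pair (0.98). Among 11995 genes with a mean of at least 5 CPM, the 8 whose log2 CPM followed the members' mean most closely included *Fstl1*, *Ppp1r3c*, *Prss23*, *Tcf7l2*, *Ank*, *Slc17a6* and *Scg2*, with Pearson's r from 0.98 to 0.99. *Slc17a6*, the glutamate transporter of brainstem and thalamic neurons, was at 21.1 (Cb-N), 103 (Cb-T), 128 (F/M-N) and 122 CPM (F/M-T). The points are 12 libraries in 4 groups that share areas and genotypes, so these values describe the 4 groups and no p is given.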

How the data were processed

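Single-end 50-base reads of poly(A) RNA from a stranded kit were aligned to mm10 (GRCm38) with STAR and counted per gene with featureCounts 1.26.1. The submitters' processing notes give STAR 2.5.1b, and the strand setting was not given in the sources used here. The deposited files hold the authors' raw counts, unnormalised, 1 file per library, with gene symbols, and 0 columns came from samples of other series.

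From these counts, groups were set by sample title and each comparison was fitted on its own 6 libraries (the interaction on 12) with edgeR 4.0.16 in R 4.3.3: TMM, filterByExpr (minimum count 10, minimum total 15), quasi-likelihood test, Benjamini-Hochberg adjustment over all genes kept. Values in CPM use the TMM scale of that fit unless stated, and per-kb values divide by the union of GENCODE exons. Members and lists were chosen with earlier results of these data known. Named list genes are the up to 4 largest changes among those called per list and comparison, with marker genes at 0 in a group, plus 8 genes by likeness (prior count 2). *Adamts4* and *Tnr*, and the cerebellar values of *Fa2h*, *Sox10*, *Olig2*, *Myrf*, *Chat*, *Isl1* and *Slc6a5*, fall outside this rule and were chosen after their values were seen. Some genes that the rule names are not reported here. The fits were tested on simulated data. Alternatives were DESeq2 1.42.0, limma 3.58.1 (voom), relative log expression (RLE) scaling, other filters and limits, a replicate block, one fit of 12 libraries and leaving out each library.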

Additional observations from a re-analysis of the deposited data

Results flagged for a closer look

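The genotype difference of every member differed between the areas by the interaction test of edgeR's quasi-likelihood fit. The log2 fold change in Cb minus that in F/M was 0.46 for *Mbp* and *Mag*, 0.31 for *Mog*, 0.32 for *Mobp*, 0.27 for *Cnp*, 0.27 for *Mal* (0.265), 0.38 for *Cldn11*, 0.61 for *Opalin* and 0.22 for *Ugt8a*. For *Ugt8a* the larger part came from the F/M fall, and for the other 8 members from the Cb rise.

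Of 33 further genes named from the oligodendrocyte, peripheral myelin and axonal lists, 25 differed between the areas in the same test. They were named for their large changes in these same comparisons, so this count was favoured by the choice and supports nothing, and over all 17482 genes 3046 had a higher and 1770 a lower difference. Among mature and lipid genes the difference was 0.62 for *Pllp*, 0.39 for *Klk6*, 0.53 for *Gal3st1*, 0.47 for *Gjb1*, 0.32 for *Fa2h*, 0.28 for *Anln*, 0.28 for *Gltp* and 0.29 for *Aspa*. Among precursor genes it was 1.11 for *C1ql1*, 0.73 for *Gpr17*, 0.48 for *Bcas1* and 0.46 for *Pdgfra*. For the transcription factors it was 2.84 for *Tcf7l2*, 0.29 for *Olig1* and -0.38 for *St18*. For genes shared with peripheral myelin it was 3.34 for *Egr2*, 1.38 for *Gldn*, 0.89 for *Scn7a*, 0.23 for *Pmp22* and 0.29 for *Drp2*. *Egr2* and *Gldn* were low in cerebellum, with Cb-T means of 0.893 and 0.847 CPM and lower ones in Cb-N. For axonal genes it was -0.44 for *Sptbn4*, 0.40 for *Nefm*, 0.32 for *Nefl*, 0.14 for *Cntnap1* and 0.31 for *Nefh*.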

How the results depend on the processing

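The 8 members higher in Cb-T, the 9 lower in Cb-N than in F/M-N and the 9 with a higher log2 fold change in Cb than in F/M (for *Ugt8a* through its F/M fall) were called under each alternative scaling, filter, tool and library left out, and lost calls only when a 1.5-fold change was also required, which left 1, 3 and 1. In F/M-T the count of higher members was 0 in DESeq2, in one fit of 12 libraries, at a limit of 0.05 and with the 1.5-fold limit, 2 in limma-voom and 0 to 3 with a library left out. The count of lower members was 1 at a limit of 0.05, 0 with the 1.5-fold limit and 1 to 2 with a library left out. Values near 0 in F/M changed sign: *Mag* was -0.0009 with RLE scaling and with DESeq2, -0.0302 in one fit of 12 libraries and -0.0182 to 0.0334 with a library left out. *Mog* was -0.0022 in that one fit. With a library left out *Mog* ran from -0.0029 to 0.0793, *Mobp* from -0.0104 to 0.0092 and *Cldn11* from -0.0621 to 0.0098.

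The mature oligodendrocyte median in F/M was -0.0086 in one fit of 12 libraries. Its interaction median of 0.30 became 0.27 with RLE scaling and with DESeq2, 0.32 with no filter and 0.25 at a mean count of 50 or more. With a library left out the median ran from 0.22 to 0.27 in Cb, 0.0152 to 0.0514 in F/M, -0.14 to -0.0799 between controls and 0.23 to 0.32 for the interaction. The cause of these shifts was not tested.

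Same-numbered libraries did not deviate together: their correlation ran from -0.016 to 0.062, and 2, 3 and 2 of 6 libraries correlated best with their own number. With the replicate block the count of higher members was 8 in Cb and 2 in F/M, and the count of lower members in F/M was 2. Counting error bears most on *Opalin*, the lowest member, and on the *Hox* genes near 0.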

Other observations

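Genes of the axon that myelin contacts were read as well. In F/M-T 7 of 11 genes of the node, the paranode and the axonal skeleton were lower and 0 higher, with a median log2 fold change of -0.10 (14.4% of all genes were lower). With a library left out 5 to 6 were lower. *Cntnap1*, the paranodal partner of glial neurofascin, fell by 0.37, *Ank3*, the node's scaffold, by 0.20, *Cntn2*, a juxtaparanodal adhesion protein, by 0.19, and *Nefh*, a neurofilament subunit, by 0.12. In Cb-T 4 of the 11 fell and 5 rose, where 27.9% of all genes were lower and 29.8% higher. *Sptbn4*, the spectrin of the node, fell from 230 ± 4.62 to 156 ± 10.8 CPM (-0.56) and *Ank3* by 0.31, while the neurofilaments *Nefm* (0.33) and *Nefl* (0.31) rose.

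Of the genes of peripheral myelin, *Pmp2* had no count in any of the 12 libraries. *Egr2*, a factor of Schwann cells that neurons also make, was at 0.156 ± 0.111 CPM in control and 0.893 ± 0.216 CPM in mutant cerebellum (SD, n = 3). In forebrain/midbrain the controls were at 23.0 ± 0.970 CPM and the mutants at 12.9 ± 0.172 CPM. *Pmp22* rose in Cb (0.47) and in F/M (0.26). *Gldn* and *Scn7a* rose in Cb-T by 1.67 ± 0.376 and 0.89 ± 0.191 (SE), both from low levels. *Gldn* went from 0.263 to 0.847 CPM, with at most 6 counts in a Cb-N and 22 in a Cb-T library. *Scn7a* went from 1.62 to 3.01 CPM.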
